A study of Rattus norvegicus with 16 samples.

Results

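Metallothioneins and the transcription factor that switches them on were examined in rat hepatoma H35 cells after silencing of Pdrg1. The 4 genes were Mt1a, Mt2A, Mt3 and Mtf1, and they were read by 5 of the 30367 probes and 23 of the 42877 gene spots on the array, which names 26269 genes and transcripts in all. They were chosen by their gene names, with results of these arrays known and because a fall of Mt2A after silencing had been listed. The differences from the control clone are therefore given as a description. Where p-values or calls stand beside those differences, they are not read as tests. Expression was measured on 16 one-color Agilent arrays, 4 for each of 4 groups, and each array reads the Cy3 signal of 1 RNA sample.

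All groups are H35 cells transfected with a SureSilencing shRNA plasmid and selected with G418. CN-10 is a stable clone that carries the negative control sequence. The stable clone 4-18 carries the silencing sequence shRNA4 and the stable clone 3-44 carries shRNA3. The 3 clones were selected for 2 weeks at 1.8 mg/ml G418 and for 2 more weeks at 4 mg/ml. The group shRNA3T is a pool of cells transfected with shRNA3 and enriched by the first selection alone. Each stable group is thus 1 clone, no pool with the control plasmid was compared here, and a difference from CN-10 cannot be told apart from a difference between clones. The 4 arrays of a group shared 1 slide, with 1 group to a slide and a different scan day for 4-18, so that slide and group cannot be told apart either. The p-values below measure the spread between 4 samples of a clone or pool.

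Metallothioneins are small proteins in which cysteines hold zinc, copper and cadmium, and in liver they take up an excess of these metals. Mtf1 is a zinc finger transcription factor that senses free zinc and binds metal response elements in the promoters of Mt1 and Mt2, and glucocorticoids and oxidants raise the same genes. Mt1a and Mt2A are the forms made in liver. Mt3 is known mainly from brain, and Mt4 from stratified epithelia.

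The array reads the cluster at separate places. The probe sequences were compared with those of other probes on the array and not with transcripts, so what each probe hybridises was not tested. The files give positions on the rn4 build, for which no exon annotation was used here. The Mt1a probe lies at chr19:11261631-11261690 on the minus strand. One Mt2A probe, spotted 10 times on each array, lies at chr19:11267834-11267893, and the other, spotted once, at chr19:11268168-11268227, which is 274 bases away and further upstream in the transcript. Mt3 is read at chr19:11284627-11284686. The 60-base probe of Mtf1 has 10 spots, and its ends are placed at chr5:144172266-144175534. The first 30 bases of the 10-spot Mt2A probe and of the Mt1a probe, and all 60 bases of the single-spot Mt2A probe, are given here because the results below turn on how these probes differ. Capitals mark TGC, a cysteine codon, when the sequence is read in threes from its first base.
Mt2A, 10 spots: ttttttgtacaaccctgaccggttctccac
Mt1a, 1 spot: cccagtttactaaaccccgttttctaccga
Mt2A, 1 spot: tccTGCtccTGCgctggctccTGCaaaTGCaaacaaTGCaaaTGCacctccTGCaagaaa
Read this way, 7 of the 20 codons of the single-spot Mt2A probe were TGC and 0 were stop codons, and it is called the coding probe below. It shared a run of 23 bases with a probe at the Mt1a locus, for the transcript FQ220235. The longest run that the 10-spot Mt2A probe shared with any other probe on the array was 14 bases, and the Mt1a probe likewise had 14.

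The promoters of Mt1a and Mt2A, the metallothioneins of liver, are printed for their metal response elements. They are RefSeq sequences of the GRCr8 build, read toward the gene and ending 1 base before its start, and the array's Mt1a is Mt1 there. Capitals mark TGCACNC or TGCGCNC, the core of the element, on either strand.
Mt1, chr19:10832976-10833225: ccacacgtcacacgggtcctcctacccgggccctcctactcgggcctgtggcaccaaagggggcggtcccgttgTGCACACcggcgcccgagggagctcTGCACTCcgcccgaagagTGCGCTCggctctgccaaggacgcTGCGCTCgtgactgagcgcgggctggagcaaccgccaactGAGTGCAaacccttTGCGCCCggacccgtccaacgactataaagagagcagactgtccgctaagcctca
Mt2A, chr19:10838709-10838958: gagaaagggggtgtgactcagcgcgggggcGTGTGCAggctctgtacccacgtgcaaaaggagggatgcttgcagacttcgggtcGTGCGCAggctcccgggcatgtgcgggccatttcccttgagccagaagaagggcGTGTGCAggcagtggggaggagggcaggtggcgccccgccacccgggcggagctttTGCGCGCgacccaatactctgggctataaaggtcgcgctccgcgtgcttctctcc
The core occurred 6 times in Mt1, 4 times in Mt2A, 3 times in Mt3 and 2 times in the promoter of Mtf1 itself, and no copies overlapped. In Mt1 and Mt2A 1 copy stood at the same place, 55 to 49 bases before the start. Of 33465 rat promoters of the same length, 20.6% held at least 1 copy (10.3% TGCACNC, 11.8% TGCGCNC) and 0.266% held 4 or more. A match of letters is a description and not a site in use.

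Before the members, the arrays themselves are described. Between 53.1% and 74.3% of the gene spots were well above background, the lowest shares being those of 4-18 (53.1% to 64.1%). The 75th percentile of the raw spot signal was 1614 to 1946 on the arrays of 4-18 and 2328 to 3692 on the other 12. No gene spot was saturated. Pdrg1, the silenced gene, was lower on each of the 12 silenced arrays (highest 13.34) than on each CN-10 array (lowest 13.41), with log2 differences of -0.77 in 4-18, -0.99 in 3-44 and -0.85 in shRNA3T (SE 0.34 each, limma adjusted p = 0.129, 0.105 and 0.143). Of 15 hepatocyte markers 14 were well above background on all CN-10 arrays, and of 15 markers of other liver cell types 8 were above it on all CN-10 arrays and 5 on none. On all arrays of 4-18 these numbers were 11 and 2, on those of 3-44 14 and 7, and on those of shRNA3T 14 and 6. At a limit of 2-fold and a limma adjusted p under 0.05, 1 hepatocyte marker was higher and 3 lower in 4-18. In 3-44 2 were higher, and in shRNA3T 3. The shares of all probes called higher and lower were 2.55% and 3.36% in 4-18, 0.682% and 0.721% in 3-44 and 1.12% and 1.17% in shRNA3T. At an unadjusted limma p under 0.05, 3, 9 and 6 of the 15 were higher and 6, 1 and 1 lower in 4-18, 3-44 and shRNA3T. Of all probes, 16.6%, 8.71% and 10.3% were higher and 17.3%, 10.6% and 12.6% lower there. Named after their values were seen, Ttr was higher by 2.93, 2.84 and 2.39 in 4-18, 3-44 and shRNA3T, and Apoa1 differed by -2.12, 2.18 and 0.04. The summed signal of the markers of other cell types was 2088 to 2220 in CN-10 and 1841 to 2169 in the silenced groups. One of them was called, Des, lower by 1.17 in 4-18 (limma adjusted p = 4.5e-05), and it differed by -0.81 in 3-44 and -0.98 in shRNA3T. At an unadjusted limma p under 0.05, 5, 2 and 2 of the 15 were lower and 0, 1 and 1 higher in 4-18, 3-44 and shRNA3T. The part of these markers in the results was not tested.

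Mt2A transcript, read by the 10-spot probe, was lower in all 3 silenced groups than in CN-10. On the log2 scale of the normalized signal the 4 CN-10 arrays gave 13.85, 13.63, 14.02 and 13.40. Those of 4-18 gave 13.15, 13.33, 13.33 and 13.20, those of 3-44 gave 11.70, 11.55, 11.38 and 11.58, and those of shRNA3T gave 12.66, 12.56, 12.47 and 12.45. No array of a silenced group reached the lowest CN-10 array, and the groups stood in the order CN-10, 4-18, shRNA3T, 3-44 with no overlap between neighbours. The share of all probes whose arrays separate without overlap was not counted, here or for the probes below. The difference from CN-10 was -0.48 in 4-18 (1.39-fold lower), -2.17 in 3-44 (4.51-fold lower) and -1.19 in shRNA3T (2.28-fold lower), with an SE of 0.11 for each. In the deposited values, which were not scaled between arrays, 4-18 stood at -1.22 and was level with shRNA3T at -1.19.

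**Figure D1:**
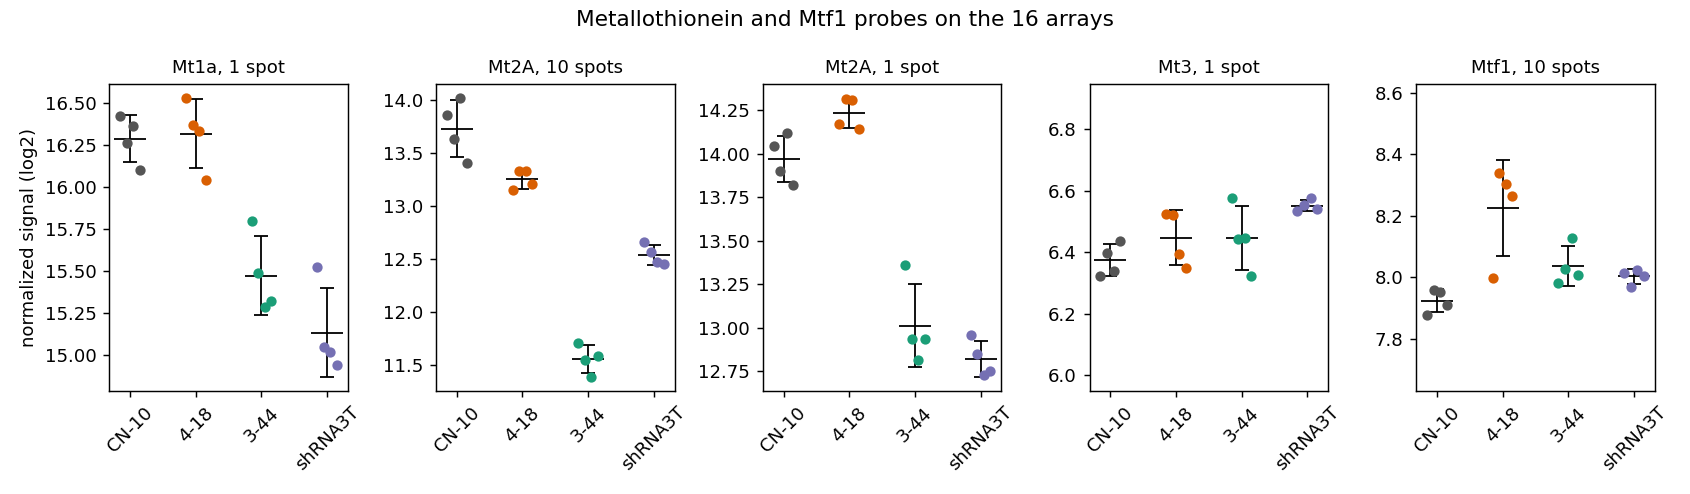
Normalized signal (log2, vertical axes, each panel with its own range) of the 5 probes on the 16 arrays, by group. Points are arrays, horizontal bars the mean and whiskers the SD of 4 arrays, and 3-44 is the lowest group for the 10-spot Mt2A probe (mean 11.55) but not for the single-spot one (mean 13.01 against 12.82 in shRNA3T, though 3-44 minus shRNA3T is -0.10 there with the processed signal).

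The single-spot probe in the coding part of Mt2A gave another picture of the same gene. CN-10 read 14.04, 13.90, 14.12 and 13.82, and 4-18 read 14.17, 14.31, 14.31 and 14.15, so here every 4-18 array was above every CN-10 array. In 3-44 the values were 13.36, 12.94, 12.82 and 12.94, and in shRNA3T 12.958, 12.85, 12.73 and 12.75. The arrays of 3-44 and shRNA3T overlapped each other and lay below CN-10. The differences from CN-10 were 0.26 in 4-18, -0.96 in 3-44 and -1.15 in shRNA3T (SE 0.11 each), and the first turned to -0.05 with the processed signal and to -0.44 in the deposited values that were not scaled.

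Mt1a, the other metallothionein of liver, followed the coding probe of Mt2A. CN-10 arrays read 16.42, 16.26, 16.37 and 16.10 and 4-18 arrays 16.53, 16.37, 16.33 and 16.04, and these groups overlapped. The values were 15.80, 15.49, 15.28 and 15.32 in 3-44 and 15.52, 15.05, 15.01 and 14.94 in shRNA3T, both below every CN-10 array and overlapping each other. The difference from CN-10 was 0.03 in 4-18, -0.81 in 3-44 (1.76-fold lower) and -1.16 in shRNA3T (2.23-fold lower), with an SE of 0.15. In the deposited values without scaling the difference in 4-18 was -0.57, and with the processed signal that in 3-44 was -0.35.

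Mt3 was at the floor of the array. Its probe was well above background on 0 of 4 arrays in CN-10, 4-18 and 3-44 and on 3 of 4 in shRNA3T. CN-10 read 6.32, 6.40, 6.34 and 6.44, 4-18 read 6.52, 6.52, 6.39 and 6.35, 3-44 read 6.58, 6.44, 6.45 and 6.32, and shRNA3T read 6.54, 6.55, 6.58 and 6.54. Against the lowest signal that counts as above background, shRNA3T was at least 1.12-fold higher than CN-10. A probe that misses this mark throughout a group gives only such a value, and no fold is given between the other groups.

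Mtf1, the metal sensor, differed little between groups. CN-10 read 7.88, 7.96, 7.95 and 7.91, 4-18 read 7.998, 8.34, 8.30 and 8.26, 3-44 read 7.98, 8.03, 8.13 and 8.01, and shRNA3T read 8.01, 7.97, 8.03 and 8.01. Each silenced array was above each CN-10 array, by a small margin. The difference from CN-10 reached 0.30 in 4-18 (1.23-fold), 0.11 in 3-44 and 0.08 in shRNA3T (SE 0.07), none of them near 2-fold. Without scaling the value was 0.02 in 4-18 and -0.03 in 3-44. With scaling by the 75th percentile that in 4-18 was 0.73, where the median over all probes was 0.86.

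A probe was called where it changed at least 2-fold with a Benjamini-Hochberg adjusted p under 0.05 in limma, over all probes. In 4-18 the call was met by 0 of the 5 probes, against a background of 3.36% of all probes called lower and 2.55% called higher. Of the 5, 3 had an unadjusted p under 0.05 (34.0% of all probes) and 2 an adjusted one (23.6% of all probes). In 3-44 it was met by 1 probe, the 10-spot Mt2A probe (background 0.721% lower, 0.682% higher). In shRNA3T it was met by 3 probes, Mt1a and both of Mt2A (background 1.17% lower, 1.12% higher). These comparisons were among those known when the genes were chosen, so nothing is read from the counts.

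The silenced groups were then compared with each other, which asks whether they share 1 level of metallothionein. The comparisons use the same silenced arrays but no CN-10 array. Mt2A by its 10-spot probe was 3.24-fold higher in 4-18 than in 3-44 (log2 1.70 ± 0.11 SE, limma adjusted p = 6.8e-08). It was 1.64-fold higher in 4-18 than in shRNA3T (0.71, adjusted p = 0.00035) and 1.98-fold lower in 3-44 than in shRNA3T (-0.98, adjusted p = 5.7e-05). Each of these 3 pairs had 4 arrays against 4 without overlap, for which the two-sided exact permutation p is 0.0286, the smallest this design allows. Many other probes differed too, since 33.2%, 30.4% and 22.8% of all probes had an unadjusted limma p under 0.05 in these 3 comparisons. In the deposited values without scaling the difference of 4-18 from shRNA3T was -0.03 (adjusted p = 0.925), so that this order depends on the scaling.

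The coding probe of Mt2A and the Mt1a probe also read highest in 4-18 among the silenced groups. The coding probe of Mt2A was higher in 4-18 by 1.22 than in 3-44 and by 1.41 than in shRNA3T (SE 0.11, limma adjusted p = 1.4e-06 and 4.1e-07). Mt1a was higher in 4-18 by 0.85 than in 3-44 and by 1.19 than in shRNA3T (SE 0.15, adjusted p = 0.00063 and 3.6e-05). Without scaling these 4 differences were 0.60, 0.71, 0.22 and 0.52, and their limma adjusted p ran from 0.051 to 0.499. With the processed signal that of Mt1a from 3-44 was 0.39 (limma adjusted p = 0.085). Between 3-44 and shRNA3T the coding probe of Mt2A differed by 0.19 (95% interval -0.04 to 0.43, adjusted p = 0.329) and Mt1a by 0.34 (0.03 to 0.65, adjusted p = 0.174). The last passed 0.05 with the processed signal (0.61, limma adjusted p = 0.024), with array weights (0.36, adjusted p = 0.0068) and without shRNA3T replicate 1 (0.47, adjusted p = 0.043). For Mtf1 the difference of 4-18 from shRNA3T was 0.22 (adjusted p = 0.044), while the arrays overlapped (exact permutation p = 0.114). It was 0.19 from 3-44 (adjusted p = 0.080). The former was 0.26 with the processed signal (adjusted p = 0.079) and -0.02 without scaling, and it missed 0.05 in 13 of 16 fits that each omitted 1 array. The latter passed it without 4-18 replicate 1 (0.27, limma adjusted p = 0.0055). The call with its 2-fold limit was met by 2 of 5 probes between 4-18 and 3-44 (background 4.81%), by 2 of 5 between 4-18 and shRNA3T (background 4.32%) and by 0 of 5 between 3-44 and shRNA3T (background 2.00%). An unadjusted p under 0.05 was reached by 4, 4 and 2 of the 5, and by 33.2%, 30.4% and 22.8% of all probes.

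**Figure D2:**
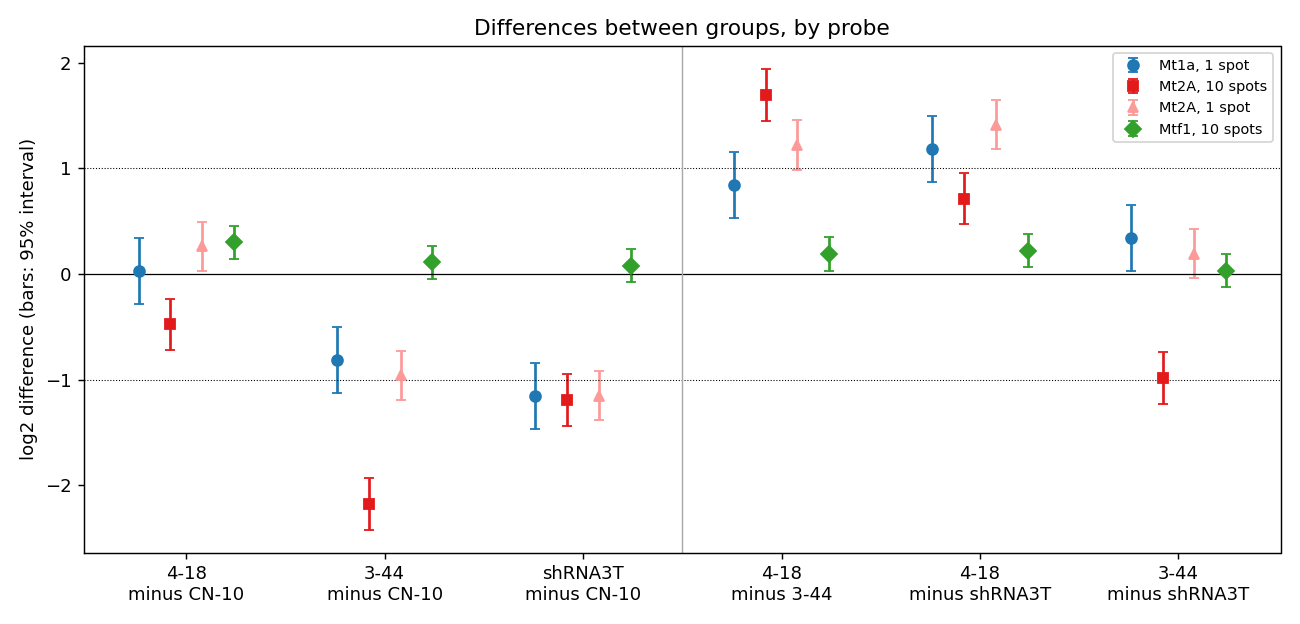
Log2 difference between groups (vertical axis) for the probes of Mt1a, Mt2A and Mtf1, with bars for the 95% interval of the limma fit and dotted lines at 2-fold. The 10-spot Mt2A probe stands at -2.17 in 3-44 minus CN-10, apart from the single-spot Mt2A probe at -0.96 and Mt1a at -0.81, while the 3 probes meet between -1.15 and -1.19 in shRNA3T (with the processed signal they read -1.25, -0.84 and -0.96 there).

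The 2 probes of Mt2A disagreed most in 3-44. Taken array by array, the 10-spot probe minus the coding probe was lower than in CN-10 by 0.74 log2 in 4-18, by 1.22 in 3-44 and by 0.04 in shRNA3T. Between silenced groups this gap differed by 0.48 for 4-18 minus 3-44, by -0.70 for 4-18 minus shRNA3T and by -1.17 for 3-44 minus shRNA3T, each without overlap of the 4 arrays and the 4 arrays (two-sided exact permutation p = 0.0286, also after adjustment over the 3 tests). The gap was not among the planned comparisons, so these p-values describe a pattern seen in the same arrays and do not lend it weight. With the processed signal, an alternative chosen after seeing the data, the gap was lower than in CN-10 by 0.37 in 4-18, by 1.26 in 3-44 and by 0.41 in shRNA3T. There 4-18 minus shRNA3T was 0.03 (exact permutation p = 0.8), while 4-18 minus 3-44 was 0.88 and 3-44 minus shRNA3T was -0.85, without overlap. With the trend over the rows of the array removed, as described below, the 3 gaps were 0.78, -0.40 and -1.18. The larger gap of 3-44 was thus present each way, while the difference between 4-18 and the pool depended on the processing. Across the 16 arrays the coding probe of Mt2A correlated with Mt1a at r = 0.96 and with the 10-spot probe of its own gene at r = 0.79, values in which the arrays share groups and slides. Whether the probes read different transcripts was not tested.

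A probe for the transcript FQ220235 lies at chr19:11262012-11262071 on the same strand as Mt1a, 321 bases upstream of the Mt1a probe. It was added after its values were seen. Its differences from CN-10 were -0.11 in 4-18, -0.33 in 3-44 and -0.99 in shRNA3T (SE 0.21). The arrays of CN-10 (14.55 to 15.26), 4-18 (14.34 to 15.38) and 3-44 (14.50 to 15.01) overlapped, and those of shRNA3T (13.88 to 14.22) lay below. Mt4, read at chr19:11300132-11300191, was well above background on 1 array of the 16, of 3-44. Mtl5, a testis protein with metallothionein-like stretches, was above it on 0 of 16. Mtf2, a Polycomb protein named for metal response elements, had means of 9.23 to 9.51 in the 4 groups, with SDs of 0.26 to 0.32.

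Because the 10-spot probe is printed at 10 places on each array, its spots were compared singly. In 3-44 the 10 spots gave differences from CN-10 between -2.54 and -1.95, and in shRNA3T between -1.43 and -0.83. In 4-18 they ran from -1.44 to 0.12, so that the reading for this clone depended on the spot. Fitted as features of their own over all spots of the array, 10 of 10 spots met the call in 3-44 (0.768% of all spots were called lower) and 9 of 10 in shRNA3T (background 1.54%). In 4-18 it was met by 2 of 10 (background 3.97%). The spots share their arrays and the fall was known when the gene was chosen, so these counts describe the spots and test nothing. One of these, in row 241 of the array, had a difference of -1.0001, just inside the 2-fold limit, and the other, in row 259, had -1.44. The nearest spot outside was in row 200, at -0.68. Leaving out CN-10 replicate 1 or 3, or 4-18 replicate 1 or 3, left 1 spot of 4-18 called, and the processed signal left 0. Of 160 spot values 3 were set aside for an outlier flag.

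The levels behind these spots show where the difference arose. In row 259 the CN-10 mean was 14.07 and the 4-18 mean 12.63. In row 241 they were 14.03 and 13.03. In row 58, the spot with the highest difference, CN-10 read 13.01 and 4-18 read 13.13. CN-10 thus varied by row as well, from 13.01 in row 58 to 14.07 in row 259, while the spots of 3-44 ran from 11.06 to 11.89.

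Other probes also moved with the row, by amounts unlike those of Mt2A. Whether the place on the array made the Mt2A spots differ was not tested. Over 370 other 10-spot probes of log2 signal above 12, well above background on all arrays, the deviation of a spot's 4-18 difference from the median of its probe was 0.19 in rows 1 to 53, -0.40 in rows 213 to 266 and -0.37 in rows 267 to 319, and between 0.06 and 0.09 in rows 373 to 532. Both called Mt2A spots lie in rows 213 to 266. Their own deviations were -0.61 and -1.05, larger than that of the other probes. In rows 58 and 100 the Mt2A spots deviated by 0.51 and 0.37, and the other probes of rows 54 to 106 by 0.06. In 3-44 and shRNA3T the same deviation was highest in rows 1 to 53 (0.30 and 0.38) and fell to -0.13 and -0.17 at its lowest. The spread of the 10 Mt2A differences in 4-18, 1.56, compared with a median of 1.10 over 145 10-spot probes within 0.5 of its level, of which 13.4% spread at least as far. In 3-44 it was 0.59 against 0.77 and in shRNA3T 0.60 against 0.74.

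With this trend over 10 bands of rows subtracted, an alternative chosen after seeing the data, the Mt2A spots ran from -1.18 to -0.08 in 4-18, and 1 of 10 met the call. They ran from -2.58 to -1.94 in 3-44 and from -1.43 to -1.07 in shRNA3T, 10 of 10 in each. The mean of the probe was -0.48 in 4-18, -2.24 in 3-44 and -1.27 in shRNA3T (SE 0.12). The single spots of Mt1a, the coding probe of Mt2A and Mt3 lie in rows 463, 465 and 476, where the deviation of the other probes was 0.09 in 4-18, -0.13 in 3-44 and -0.12 in shRNA3T. With the trend subtracted, Mt1a stood at -0.09, -0.70 and -1.06 and the coding probe of Mt2A at 0.14, -0.84 and -1.05 in these groups.

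**Figure D3:**
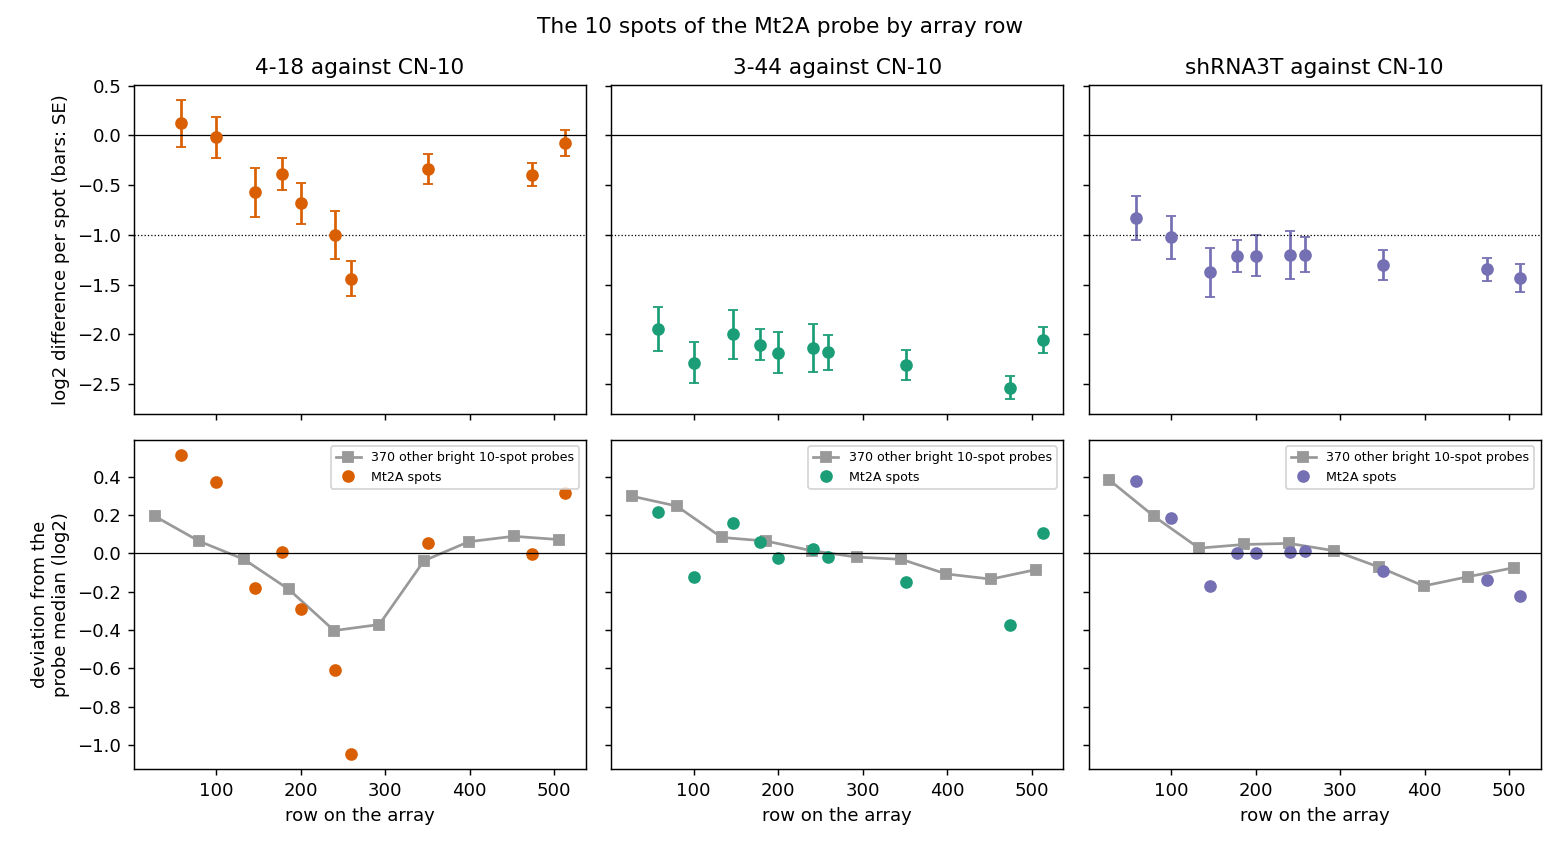
Upper panels show the log2 difference from CN-10 of each of the 10 Mt2A spots (points, bars are SE, dotted line at 2-fold lower) against the row of the array, and lower panels the deviation of each spot from the probe's median beside the median deviation of 370 other bright 10-spot probes in 10 bands of rows (squares). In 4-18 both dip in rows 213 to 266, the Mt2A spots to -1.05 and the other probes to -0.40, while the spots of 3-44 lie between -2.54 and -1.95.

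The scaling between arrays moved 4-18 more than the other groups. In the deposited values, which were not scaled, the 10-spot Mt2A difference was -1.22 in 4-18, -2.30 in 3-44 and -1.19 in shRNA3T, and 7 of 10 spots met the call in 4-18. The 145 probes of like level had a median difference of -0.78 in 4-18, -0.13 in 3-44 and -0.03 in shRNA3T there, against -0.04, -0.01 and -0.02 after quantile normalization. Relative to those probes, Mt2A in 4-18 stood at -0.44 with quantile normalization, -0.43 with scaling by the 75th percentile and -0.44 without scaling. In 3-44 these values were -2.16, -2.17 and -2.17, and in shRNA3T they were -1.18, -1.18 and -1.16. Subtracting probes of like level takes out any shift they share, so the likeness of the 3 scalings follows from the measure and says nothing on the order of 4-18 and shRNA3T.

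The Mtf1 probe gave no such split between spots. Its 10 spots ran from -0.02 to 0.67 in 4-18, from -0.16 to 0.25 in 3-44 and from -0.09 to 0.43 in shRNA3T, and 0 of 10 met the call in any of them (4 of 10 had a limma adjusted p under 0.05 in 4-18, as had 25.3% of all spots, and 0 in the others). Of its 160 spot values 4 were set aside for an outlier flag.

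Other genes of metal handling were counted from lists, with the probe of the highest mean for each gene. The shares of all probes called higher and lower were 2.55% and 3.36% in 4-18, 0.682% and 0.721% in 3-44 and 1.12% and 1.17% in shRNA3T, and the counts below are a description beside them. In 4-18 they depend on the scaling, since 8 of the 87 genes in the lists were called higher and 6 lower, against 3 and 18 without scaling, and 22 were higher with scaling by the 75th percentile. Among 23 zinc transporters on the array, 1 was called higher in 4-18, 0 in 3-44 and 1 in shRNA3T, and 0 were called lower by limma (at an unadjusted p under 0.05, 4, 2 and 1 were lower and 5, 4 and 5 higher, where 17.3%, 10.6% and 12.6% of all probes were lower and 16.6%, 8.71% and 10.3% higher). The gene called was Slc30a2, which loads zinc into vesicles. CN-10 read 6.48 ± 0.05 (mean ± SD, n = 4), 4-18 read 10.60 ± 0.07, 3-44 read 7.07 ± 0.12 and shRNA3T read 7.89 ± 0.06, a 17.4-fold rise in 4-18 and a 2.66-fold rise in shRNA3T (limma adjusted p = 2.2e-14 and 9.8e-09). The CN-10 level is near the floor of the array, being well above background on 3 of 4 arrays, so the size of these folds is uncertain. In 3-44 it was 1.51-fold higher (adjusted p = 7.8e-05), under the limit. Slc30a1, the zinc exporter of the cell surface and a target of Mtf1, differed by -0.56 in 4-18 (SE 0.21, adjusted p = 0.065), by 0.02 in 3-44 and by -0.22 in shRNA3T. Slc39a10 was not matched to a probe.

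Of 10 other Mtf1 targets on the array, 1 was called higher and 1 lower in 4-18 and in shRNA3T, and 0 in 3-44. At an unadjusted limma p under 0.05, 5, 4 and 3 were higher and 4, 2 and 3 lower in 4-18, 3-44 and shRNA3T. The median difference of the list was 0.02, 0.04 and -0.06 in 4-18, 3-44 and shRNA3T, and that over all probes was within 0.01 of 0 in each. The one called higher was Ndrg1, a stress gene, at 1.45 in 4-18 and 1.58 in shRNA3T (SE 0.30, limma adjusted p = 0.0026 and 0.0027). The one called lower was Hamp, the iron hormone hepcidin. CN-10 read 11.10 ± 0.26, 4-18 read 8.81 ± 0.12, 3-44 read 10.61 ± 0.26 and shRNA3T read 6.98 ± 0.05, so Hamp fell 4.86-fold in 4-18 and 17.4-fold in shRNA3T. The shRNA3T level is near the floor of the array, though well above background on 4 of 4 arrays, so the size of the second fold is uncertain.

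Iron genes were called in both directions. Among 15 on the array, 2 rose and 2 fell in 4-18, 1 rose in 3-44, and 1 rose and 1 fell in shRNA3T. Tfr2, a transferrin receptor of hepatocytes, rose in the 3 groups by 1.22, 1.32 and 1.00 (SE 0.25). Hmox1, which breaks down heme, rose 4.54-fold in 4-18 and was 1.68-fold and 1.77-fold higher in the others. Tf, the transferrin gene, fell 2.83-fold in 4-18 (limma adjusted p = 0.022) and differed by 1.02 in 3-44 (adjusted p = 0.256) and 0.23 in shRNA3T. Hamp is the other that fell. Of 15 copper genes 1 was called, Atp7a, the copper pump, at 1.03 in 4-18 (SE 0.25, adjusted p = 0.0076).

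Some stress genes that cadmium and heat induce together with metallothioneins were called higher. Of 15 on the array, 3 rose in 4-18, 0 in 3-44 and 1 in shRNA3T, and 0 were called lower by limma in each (1, 4 and 2 were lower and 7, 2 and 3 higher at an unadjusted p under 0.05). Hspa1b, an inducible heat shock protein, had a CN-10 level of 7.08 ± 0.10 and levels of 9.78 ± 0.23, 8.03 ± 0.14 and 8.29 ± 0.13 in 4-18, 3-44 and shRNA3T, 6.53-fold higher in 4-18, 1.94-fold in 3-44 and 2.32-fold in shRNA3T. Bag3, its cochaperone, rose by 1.10 in 4-18 (SE 0.11). The third in 4-18 was Hmox1, which both lists hold. Srxn1, which repairs oxidised peroxiredoxins and was named after its values were seen, went the other way within the 2-fold limit, at -0.71, -0.81 and -0.58 in 4-18, 3-44 and shRNA3T (limma adjusted p = 0.00036, 0.0004 and 0.0034).

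Glucocorticoid-responsive genes, a group to which Mt1a and Mt2A belong in liver, were mixed. Of 14, 1 rose and 4 fell in 4-18, 1 rose in 3-44, and 2 rose and 2 fell in shRNA3T. Sgk1, a kinase, fell by 1.99 in 4-18 and by 1.14 in shRNA3T (SE 0.32), and Errfi1, a brake on EGF receptor signalling, fell by 1.22 and 1.10 (SE 0.17). Fkbp5 and Tsc22d3, named after their values were seen because they complete the 4 that fell, fell by 1.11 and 1.39 in 4-18. Pck1, the gluconeogenic enzyme, was unlike them, rising 2.40-fold in 3-44 and 5.87-fold in shRNA3T and differing by -0.25 in 4-18 (SE 0.22). Igfbp1 rose by 1.29 in 4-18 and by 1.99 in shRNA3T (SE 0.17).

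**Figure D4:**
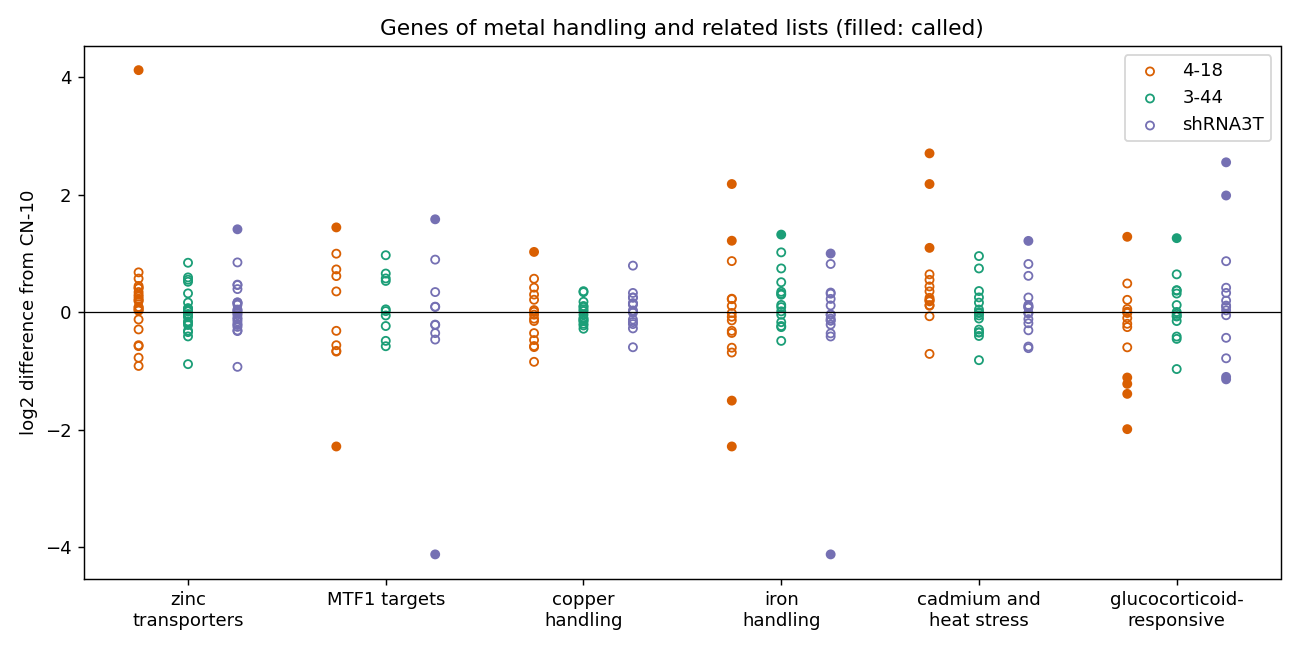
Log2 difference from CN-10 (vertical axis) of each gene of 6 lists, by silenced group; filled points met the 2-fold and adjusted p limits. Slc30a2 stands highest at 4.12 in 4-18, Hamp, which is in both the Mtf1 target and the iron list, stands lowest at -4.12 in shRNA3T, and most points lie near 0.

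The genes whose pattern over the 16 arrays was most like a metallothionein were sought among 12541 probes well above background on every array, by Pearson correlation. For Mt1a they were Gpsm1 (r = 0.98), TC602213 (0.97), ENSRNOT00000058957 (0.97), Upp1 (0.96) and LOC360713 (0.96). For the coding probe of Mt2A they were Ndufa10 (0.97), Haus1 (0.97), Tdg (0.96), Mt1a (0.96) and ENSRNOT00000058957 (0.96). For the 10-spot probe of Mt2A, added after the values were seen, they were Ddit4l (0.94), Tinagl1 (0.93), LOC684862 (0.93), Pkp2 (0.92) and Rab12 (0.92). The arrays share groups and slides, so these values mostly repeat the order of 4 group means.

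ENSRNOT00000058957, an uncharacterized protein on chromosome X and like both, is printed because its probe resembles a metallothionein. Capitals mark TGC and TGT, the cysteine codons, read from the first base.
ENSRNOT00000058957: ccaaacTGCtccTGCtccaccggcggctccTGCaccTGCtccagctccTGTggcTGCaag
FQ220235: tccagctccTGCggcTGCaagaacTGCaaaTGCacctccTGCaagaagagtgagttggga
Of the 20 codons of the ENSRNOT00000058957 probe 5 were TGC and 1 was TGT, and the FQ220235 probe held 5 TGC. The ENSRNOT00000058957 signal was 14.93 ± 0.15 for CN-10, 15.22 ± 0.28 for 4-18, 14.34 ± 0.09 for 3-44 and 13.95 ± 0.17 for shRNA3T. Whether Mt1a or Mt2A transcripts hybridise to this probe was not tested, so its level is uncertain.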

How the data were processed

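RNA of 16 H35 samples was hybridised to one-color Agilent arrays. The authors used Feature Extraction 10.7.3.1 to read the spots. Deposited as intensity values per spot were the mean and median signal and the local background, linear and not normalized, a processed signal that the software corrected for background and trends, and flags. The deposited table of series values, whose other unit had lost its decimal points, equalled log2 of the normexp-corrected median signal with no scaling between arrays (largest difference 4e-11). The submitters' processing notes name limma.

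From these, normexp background correction (offset 50), quantile normalization, removal of outlier-flagged spots and averaging of a probe's spots were computed in R 4.3.3 with limma 3.58.1. A linear model of the 4 groups, with moderated variances (empirical Bayes), covered all 16 arrays, for probes and again for single spots, and p-values were adjusted over all of them. On simulated data for 3-44 against CN-10, 192 of 200 changed probes among 29317 were recovered and 1 was wrongly called. The planted changes were all beyond the 2-fold limit, and the noise was independent between arrays, with no slide or row effect. The recovery therefore does not carry over to smaller differences or to effects of the slide. The values are array signals, so no sequencing depth applies, and each group has 4 arrays.

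Metallothionein probes, Pdrg1, Slc30a1, Slc39a10, up to 4 called genes per list and the 5 most correlated genes were named. Members and lists were chosen with earlier results of these data known. Scaling, background, signal, filters, weights, spot handling and left-out arrays were varied. Control spots were left out.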

Additional observations from a re-analysis of the deposited data

Results flagged for a closer look

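None of the 20 sets of 4 values (5 probes in 4 groups) had a sample beyond Dixon's 95% limit. The silenced groups differed from each other, by limma's test of the difference over all probes, in 8 of 15 comparisons of a probe at an adjusted p under 0.05. These were 3 of 5 for 4-18 against 3-44, 4 of 5 for 4-18 against shRNA3T and 1 of 5 for 3-44 against shRNA3T, where 22.1%, 20.1% and 10.6% of all probes passed. For Mt1a, 4-18 was higher by 0.85 than 3-44 and by 1.19 than shRNA3T. For the 10-spot probe of Mt2A, 4-18 was higher by 1.70 than 3-44 and by 0.71 than shRNA3T, and 3-44 minus shRNA3T was -0.98. For the coding probe of Mt2A, 4-18 was higher by 1.22 than 3-44 and by 1.41 than shRNA3T. For Mtf1, 4-18 was higher by 0.22 than shRNA3T, with arrays that overlapped. The same 2 groups, 3-44 and shRNA3T, carry the same silencing sequence shRNA3, and the difference of -0.98 between them was seen by 1 of the 2 Mt2A probes.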

How the results depend on the processing

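Of 1239 values of 42 results under 31 alternatives, 16 of them leaving out 1 array, 1154 were classed as the same. Differences were so classed when they kept their direction and side of the threshold or moved by less than the replicate spread. Counts of calls were so classed when equal or within a factor of 1.5, so a small change of a count can pass. The cause of the other changes was not tested. In the deposited values without scaling, the 10-spot Mt2A difference of 4-18 minus shRNA3T was -0.030, Mtf1 was -0.068 for 3-44 minus shRNA3T and -0.021 for 4-18 minus shRNA3T, 2 member probes were called lower in 3-44 and 1 in 4-18, and 7 Mt2A spots in 4-18. There 3 of 87 list genes were called higher and 18 lower in 4-18, against 8 and 6, and 0 higher in 3-44, against 2. With the processed signal, 1 member probe was called lower in shRNA3T, against 3, 0 Mt2A spots in 4-18 and 4 list genes higher in 3-44, and 3-44 minus shRNA3T was -0.10 for the coding probe of Mt2A and -0.037 for Mtf1. The gap between the Mt2A probes was there 0.033 for 4-18 minus shRNA3T, against -0.70. Scaling by the 75th percentile gave 22 list genes higher in 4-18. Array weights gave 2 member probes lower in 3-44 and 1 list gene lower. A fold limit of 1.5 gave 3 member probes lower in 3-44, list genes higher 14, 8 and 11 and lower 15, 2 and 6 in 4-18, 3-44 and shRNA3T. With the row trend removed, 1 Mt2A spot was called in 4-18 and 1 list gene was lower in 3-44, and the gap between the Mt2A probes was 0.78 for 4-18 minus 3-44 and -0.40 for 4-18 minus shRNA3T. Leaving out 1 array, the 10-spot Mt2A difference ran from 1.64 to 1.75 for 4-18 minus 3-44, from 0.69 to 0.76 for 4-18 minus shRNA3T and from -1.03 to -0.93 for 3-44 minus shRNA3T, and the gap between the probes ran from 0.41 to 0.51, from -0.71 to -0.69 and from -1.21 to -1.11. Member probes called lower ran from 1 to 2 in 3-44 (2 without CN-10 replicate 4 or 3-44 replicate 1), and were 0 in 4-18 and 3 in shRNA3T. Mt2A spots ran from 1 to 2 in 4-18 and from 8 to 10 in shRNA3T, and were 10 in 3-44. List genes higher ran from 8 to 9 in 4-18, 2 to 3 in 3-44 and 5 to 7 in shRNA3T, and lower from 5 to 7, 0 to 1 (1 without 3-44 replicate 4) and 2 to 3. Mt1a in 3-44 minus shRNA3T passed 0.05 without shRNA3T replicate 1 (0.47, limma adjusted p = 0.043). Mtf1 in 4-18 minus shRNA3T missed it in 13 of the 16 and Mtf1 in 4-18 minus 3-44 passed it in 1.

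The replicate numbers were not taken as pairs, since 12 of 24 same-numbered pairs of arrays correlated above 0.1, those of replicate 1 at 0.18 to 0.44 and the others at -0.11 to 0.21. With the replicate number as a block, the 10-spot Mt2A difference was 1.70, 0.71 and -0.98 as before, and Mt1a in 3-44 minus shRNA3T (0.34) had a limma adjusted p of 0.019, against 0.174.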
